A study of Mus musculus with 6 samples.

Results

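The 34 genes described here serve the antioxidant programme that the transcription factor NRF2 drives, together with the glutathione and thioredoxin systems and the enzymes that feed them with NADPH. They were taken by symbol from a table of 54532 genes: Nfe2l2, Keap1, Bach1, Mafg and Sqstm1 as regulators, 7 genes of glutathione, 8 of the thioredoxin system, 5 of NADPH supply, 6 of detoxification and 3 that remove superoxide or peroxide. All 34 symbols were found, each in 1 row. Expression was measured by bulk RNA-seq in 3 SAHH-KO libraries and 3 control libraries of mouse peritoneal macrophages, cells drawn to the peritoneum with thioglycollate, taken after 4 days and kept after 6 h of adherence. In the SAHH-KO group S-adenosylhomocysteine hydrolase, the enzyme encoded by Ahcy, was targeted. The labels describe that group as a knockout in one place and a knockdown in another, and the control group as shControl and as WT. Cells of both groups had received interferon-γ at 2 ng/mL and lipopolysaccharide (LPS) at 10 ng/mL for 8 h, so every value describes stimulated cells. The sources used here give neither mouse strain and age nor how the enzyme was targeted, nor whether replicates came from separate animals or cultures. The p-values therefore measure the spread between these libraries, which may be technical.

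NRF2, encoded by Nfe2l2, is held in the cytoplasm and sent for degradation by KEAP1. When cysteines of KEAP1 are modified by electrophiles or oxidants, NRF2 escapes, enters the nucleus and binds antioxidant response elements together with a small MAF protein such as MAFG, while BACH1 competes for the same elements and represses them. Its targets make glutathione, reduce thioredoxin and peroxiredoxins, supply NADPH and neutralise quinones and haem products. In macrophages the programme is known to restrain inflammatory cytokine genes and to protect the cell from the oxidants it makes itself.

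Antioxidant response elements lie near the start sites of many NRF2 targets, so the promoter windows of the genes were read first. RefSeq windows of 300 bases on GRCm38.p6, from 250 bases before to 50 after a start site, were given for 30 of the 34 genes, and Gclc, Gsr, Prdx6 and Abcc1 are named only. The letters TGACNNNGC, on either strand, were found in at least 1 window of 10 of these 30 genes (33.3%), against 14.0% of all 27025 genes with windows. The same letters followed by A were found in 2 of the 30 genes (6.67%), Pgd and Txnrd1, against 3.45% of all genes. A further form, TGANTCAGC, was added after the windows had been read. It overlaps the first motif where N is C, and it was present in 4 of the 30 genes (13.3%), Srxn1, Prdx1, Me1 and Osgin1, against 1.37% of all genes. The following windows are examples from genes that fell strongly or sit at the centre of the thioredoxin and glutathione systems. They hold a match more often than the 30 genes do. Slc7a11, Txn1, Gpx1 and Gss, which could have been shown on the same grounds, have no match in their windows. Each window is read 5′ to 3′ on the gene's strand, with every match to TGACNNNGC or TGANTCAGC in capitals.
Srxn1 (chr2:152105274-152105573, plus strand): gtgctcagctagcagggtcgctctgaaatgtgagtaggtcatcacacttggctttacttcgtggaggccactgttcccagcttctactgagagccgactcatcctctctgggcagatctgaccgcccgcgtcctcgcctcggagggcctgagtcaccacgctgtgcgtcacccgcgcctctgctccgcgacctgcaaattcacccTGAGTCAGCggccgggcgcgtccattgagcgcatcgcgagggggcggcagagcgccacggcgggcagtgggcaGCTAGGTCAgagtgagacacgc
Prdx1 (chr4:116685349-116685648, plus strand): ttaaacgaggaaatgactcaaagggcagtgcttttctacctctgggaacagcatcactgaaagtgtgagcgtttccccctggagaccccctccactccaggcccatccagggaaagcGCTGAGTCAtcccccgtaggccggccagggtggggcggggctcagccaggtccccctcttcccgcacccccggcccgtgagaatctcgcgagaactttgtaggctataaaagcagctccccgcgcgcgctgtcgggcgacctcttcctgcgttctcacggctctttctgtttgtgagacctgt
Txnrd1 (chr10:82858956-82859255, plus strand): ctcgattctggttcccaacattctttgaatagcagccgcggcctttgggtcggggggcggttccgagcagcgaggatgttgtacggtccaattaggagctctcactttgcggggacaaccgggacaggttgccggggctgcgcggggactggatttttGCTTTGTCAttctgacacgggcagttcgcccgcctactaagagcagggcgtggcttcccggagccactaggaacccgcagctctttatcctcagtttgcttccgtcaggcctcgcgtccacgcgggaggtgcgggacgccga
Gclm (chr3:122245307-122245606, plus strand): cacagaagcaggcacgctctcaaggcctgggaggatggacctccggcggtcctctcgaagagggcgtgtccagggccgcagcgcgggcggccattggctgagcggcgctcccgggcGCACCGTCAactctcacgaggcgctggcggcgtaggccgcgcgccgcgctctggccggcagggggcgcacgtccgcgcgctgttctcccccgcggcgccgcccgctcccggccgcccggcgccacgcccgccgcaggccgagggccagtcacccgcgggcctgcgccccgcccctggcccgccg
Nqo1 (chr8:107403156-107403455, minus strand): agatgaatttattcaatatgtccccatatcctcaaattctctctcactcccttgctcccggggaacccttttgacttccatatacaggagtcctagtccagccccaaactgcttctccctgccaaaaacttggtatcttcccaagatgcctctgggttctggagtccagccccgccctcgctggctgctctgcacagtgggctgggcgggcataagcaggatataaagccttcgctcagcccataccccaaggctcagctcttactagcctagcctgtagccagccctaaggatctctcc
The Srxn1 window holds TGAGTCAGC from 45 bases before the start site and GCTAGGTCA from 28 bases after it. Prdx1 holds GCTGAGTCA from 133 bases before its start, Gclm GCACCGTCA from 134 bases before and this window of Txnrd1 GCTTTGTCA from 92 bases before, while the other windows of Txnrd1 hold no match. The Nqo1 window holds none, which says only that these letters are absent from its 300 bases. A match is a run of letters and not a shown binding site.

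The libraries were similar in depth. Each library held 15540442 to 17748745 reads on genes, as recovered from the table, and 10069 to 10259 genes reached 1 FPKM (fragments per kilobase, also divided by a library size). Ahcy was at 5.51, 5.50 and 6.23 FPKM in SAHH-KO libraries and at 25.8, 22.6 and 24.4 FPKM in control libraries (log2 fold change -1.90, limma adjusted p = 1.44e-06), although 66.0% of its 50-base words also occur in Gm4737, so reads of these genes cannot be told apart with certainty. Of 8 macrophage markers 7 were expressed, among them Adgre1, Csf1r, Cd68 and Lyz2, while Mertk was near 0. Of 39 markers of B cells, T and NK cells, neutrophils, eosinophils, mast cells, dendritic cells, mesothelium and fibroblasts, 38 stayed below 1 FPKM in every library and 20 had no read. The exception was S100a8, which makes up nearly all of the summed level of the 7 neutrophil markers, 0 to 0.473 FPKM in SAHH-KO and 4.13 to 5.10 FPKM in control. Ly6g, S100a9, Cxcr2, Retnlg and Mpo of that list had no read in any library. The summed level of the macrophage markers was 9320 to 10586 FPKM in SAHH-KO and 8344 to 8645 FPKM in control. Of the 7 tested 4 were called higher and none lower, against 26.4% and 26.8% of all genes tested. With every library scaled to the same total (TPM), Adgre1, Itgam and Fcgr1 stayed higher. Cd14 then lost its call (limma adjusted p = 0.470), and Csf1r was called lower (log2 fold change -0.39, limma adjusted p = 0.00591). The part of these marker differences in the results that follow was not tested.

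Most of the 34 genes were lower in SAHH-KO macrophages. Differences were tested with limma on log2(FPKM + 1) over 10362 genes with at least 1 FPKM in at least 3 libraries, and a gene was called at a Benjamini-Hochberg adjusted p under 0.05. All 34 genes passed that filter. Nqo1 and Osgin1 passed only through their control values, so their falls, counted below, are not independent of the filter. Of the 34, 20 fell (58.8%), 6 rose (17.6%) and 8 were not called. Among all genes tested 26.8% fell, 26.4% rose and 53.3% were called in either direction. The median log2 fold change was -0.35 over the 34 genes and -0.01 over all genes tested. SAHH-KO and control values stood apart without overlap for 31 of the 34 genes, 23 of them lower and 8 higher in SAHH-KO, where 62.3% of all genes tested did not overlap (31.6% lower and 30.7% higher). In bulk RNA, fewer cells of a type and less RNA per cell cannot be told apart. Fold changes written on the log2 scale refer to log2(FPKM + 1), which understates the change of low genes, and folds in words are ratios of mean FPKM.

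The scaling of the libraries bears on the smaller differences. Rescaled to TPM (length-scaled values, where each library sums to the same total), the median of all genes tested moved to -0.16 and that of the 34 genes to -0.51, with 24 genes lower and 5 higher. Across all genes tested the calls were 2736 higher and 2782 lower as deposited, and 2006 higher and 3894 lower with TPM. Prdx2 lost its call under that scaling, while Nfe2l2, Bach1, Gpx4 and Prdx6 came to be called lower.

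**Figure D1:**
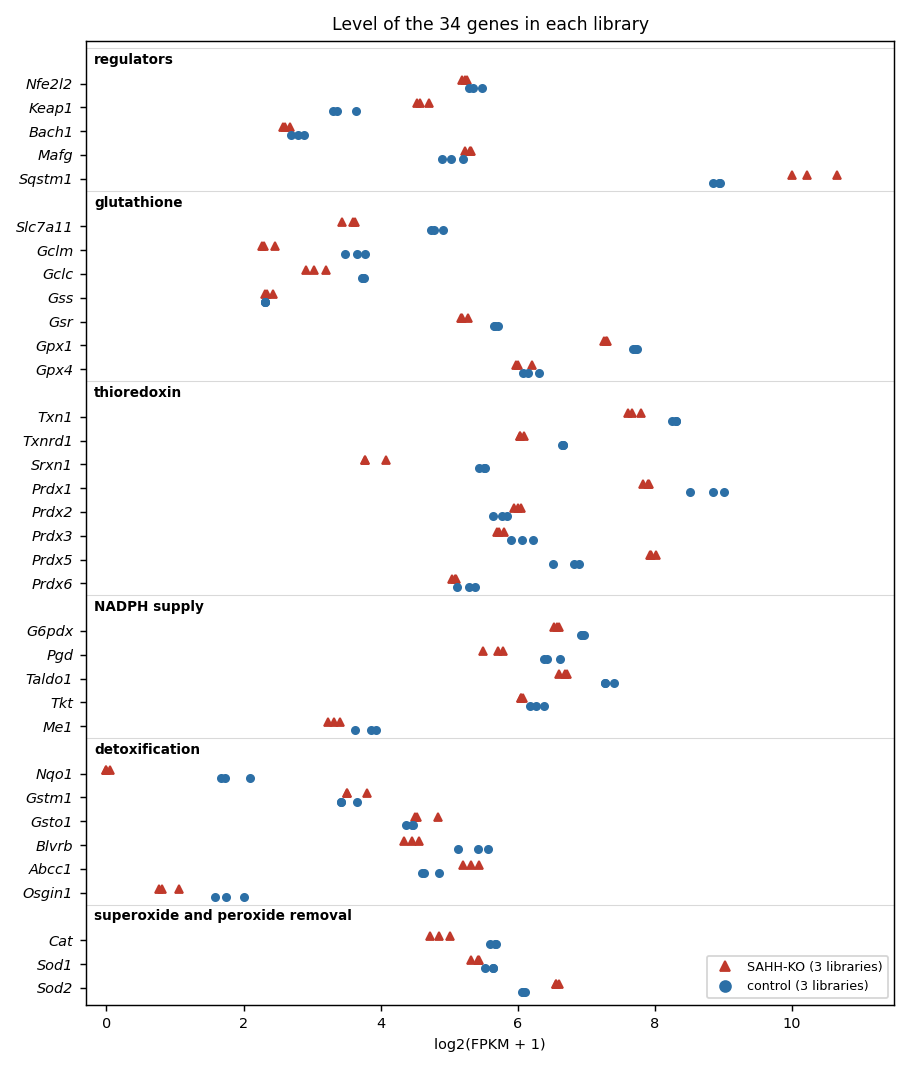
Level of each of the 34 genes in every library on a log2(FPKM + 1) axis, grouped by role, with SAHH-KO libraries as red triangles above control libraries as blue circles. The groups stand apart for 31 genes and overlap for Gss, Gpx4 and Gstm1, and Sqstm1 is the highest of the genes in both groups.

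The regulators did not move together. Nfe2l2 itself, which encodes NRF2, was at 35.6, 37.3 and 36.7 FPKM in SAHH-KO libraries and at 38.0, 43.7 and 39.98 FPKM in control libraries. Its SAHH-KO values lie below all control values, but the difference was not called (log2 fold change -0.15, SE 0.0796, limma adjusted p = 0.157). Keap1, the gene of its inhibitor, rose 2.38-fold. It read 25.2, 22.2 and 22.9 FPKM in SAHH-KO libraries and 11.4, 8.84 and 9.30 FPKM in control libraries, with every SAHH-KO library far above every control library (log2 fold change 1.18, SE 0.107, limma adjusted p = 4.88e-05). Within a library, Keap1 stood at 0.707, 0.596 and 0.625 times the Nfe2l2 level in SAHH-KO and at 0.301, 0.202 and 0.233 times in control. This ratio was higher in all SAHH-KO libraries (exact permutation test, two-sided, p = 0.1, the smallest that 3 against 3 libraries can give). Keap1 and Nfe2l2 already stand apart in opposite directions, so that p was fixed in advance and adds no support. Keap1 (ENSMUSG00000003308) lies on the minus strand of chromosome 9 of GRCm38, bases 21229730 to 21239361. The antisense gene Gm16754 shares 10.9% of the exon bases of Keap1. It was higher too, at 1.33 ± 0.102 FPKM in SAHH-KO and 0.441 ± 0.142 FPKM in control (SD, n = 3 each), but passed the filter only through its SAHH-KO values. The sources used here do not say whether reads were counted by strand.

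Sqstm1, which encodes p62, an autophagy receptor that binds KEAP1 and can take it to degradation, showed the largest rise of the 34 genes. Its levels were 1614, 1031 and 1192 FPKM in SAHH-KO libraries and 489.7, 459 and 495 FPKM in control libraries, a 2.66-fold difference (log2 fold change 1.38, SE 0.148, limma adjusted p = 0.000122), and 17.3% of its exon bases are shared with Mrnip on the opposite strand, a gene below 1 FPKM in every library. The first SAHH-KO library stands well above the other SAHH-KO libraries, and all of them exceed all control libraries. Relative to Keap1, Sqstm1 was at 64.1, 46.3 and 52.0 times its level in SAHH-KO and at 42.8, 51.9 and 53.2 times in control, and these ratios overlap (exact permutation test, two-sided, p = 0.5). Bach1, the repressor, averaged 5.14 ± 0.228 FPKM in SAHH-KO and 5.93 ± 0.470 FPKM in control (adjusted p = 0.128). Mafg, the small MAF partner, averaged 37.96 ± 1.28 FPKM in SAHH-KO and 32.0 ± 3.54 FPKM in control and was not called (limma adjusted p = 0.0564), although it was without control replicate 1 (adjusted p = 0.00884) and by voom with the authors' library sizes (adjusted p = 0.0418).

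Among genes of glutathione, 5 of 7 fell and none rose. Slc7a11 encodes the transporter that brings in cystine, the source of the cysteine in glutathione. It was at 9.87, 11.1 and 11.3 FPKM in SAHH-KO libraries and at 25.7, 29.2 and 26.5 FPKM in control libraries. The groups are far apart (log2 fold change -1.26, SE 0.0879, limma adjusted p = 1.2e-05), and the SAHH-KO mean is 39.6% of the control mean. Gclm and Gclc encode the modifier and the catalytic subunit of glutamate-cysteine ligase, which makes the first bond of glutathione. Gclm read 3.94, 4.51 and 3.801 FPKM in SAHH-KO libraries and 10.2, 12.6 and 11.6 FPKM in control libraries (log2 fold change -1.29, SE 0.102, limma adjusted p = 2.23e-05). Gclc read 6.56, 8.22 and 7.16 FPKM in SAHH-KO libraries and 12.3, 12.4 and 12.6 FPKM in control libraries (log2 fold change -0.70, SE 0.0926, limma adjusted p = 0.000382). Both subunit genes fell in all libraries, the modifier gene more than the catalytic one. The ratio of Gclc to Gclm was 1.67, 1.82 and 1.88 in SAHH-KO and 1.20, 0.986 and 1.09 in control, without overlap (exact permutation test, two-sided, p = 0.1, the smallest possible here).

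The other genes of glutathione changed less. Gss, glutathione synthetase, averaged 4.14 ± 0.214 FPKM in SAHH-KO and 3.97 ± 0.0199 FPKM in control, and the groups overlapped (limma adjusted p = 0.652). It shares 15.4% of its exon bases with Acss2 on the opposite strand, which averaged 2.60 FPKM in SAHH-KO and 1.18 FPKM in control, and the part of Acss2 reads in the Gss level was not tested. Gsr, the reductase that regenerates glutathione with NADPH, fell to 36.1 ± 1.39 FPKM in SAHH-KO, against 50.2 ± 0.959 FPKM in control (log2 fold change -0.47, limma adjusted p = 0.000808). Of the selenium-dependent glutathione peroxidases, Gpx1 fell to 155 ± 2.47 FPKM in SAHH-KO, against 209 ± 3.76 FPKM in control (log2 fold change -0.43, limma adjusted p = 0.000884). Gpx4, which protects membrane lipids and guards against ferroptosis, averaged 66.2 ± 6.00 FPKM in SAHH-KO and 71.9 ± 6.201 FPKM in control, with overlapping groups (adjusted p = 0.334). In Gpx4, 34.7% of the 50-base words also occur in the pseudogene Gpx4-ps2, which was counted at 23.7 ± 0.794 FPKM in SAHH-KO and 26.9 ± 2.23 FPKM in control.

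**Figure D2:**
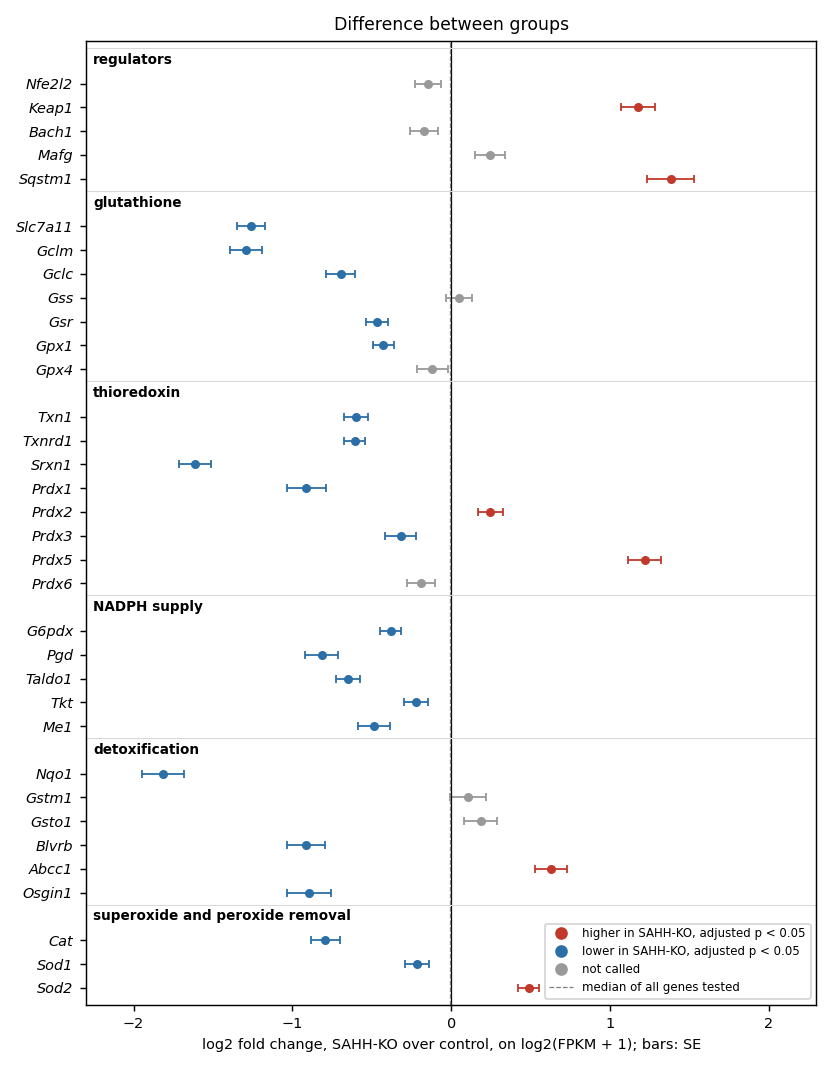
Log2 fold change of each of the 34 genes, SAHH-KO over control on log2(FPKM + 1), with its standard error as the bar and the call as colour. NADPH supply lies wholly left of 0, the regulators hold no called fall as deposited (Nfe2l2 and Bach1 are called lower with TPM), and Nqo1 (-1.82) and Sqstm1 (1.38) mark the extremes.

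Of the 8 genes of the thioredoxin system, 5 fell, 2 rose and 1 was not called. Srxn1 encodes sulfiredoxin, which repairs over-oxidised peroxiredoxins, and it had the largest fall of this group. It was at 15.9, 12.7 and 12.7 FPKM in SAHH-KO libraries and at 45.0, 44.5 and 42.2 FPKM in control libraries (log2 fold change -1.61, SE 0.101, limma adjusted p = 6.70e-06). No control library comes near the SAHH-KO values, and 94 of the 10362 genes tested had a lower log2 fold change. Srxn1 (ENSMUSG00000032802) lies on the plus strand of chromosome 2, bases 152105516 to 152111376. Thioredoxin and its reductase fell in step: Txn1 read 202, 222 and 194 FPKM in SAHH-KO libraries and 303, 318 and 315 FPKM in control libraries (log2 fold change -0.60, SE 0.0771, limma adjusted p = 0.000324). Txnrd1 read 67.2, 64.3 and 64.8 FPKM in SAHH-KO libraries and 101, 99.2 and 100.4 FPKM in control libraries (log2 fold change -0.61, SE 0.0673, limma adjusted p = 0.000146). The ratio of Txnrd1 to Txn1 averaged 0.319 ± 0.0252 in SAHH-KO and 0.321 ± 0.0108 in control (SD, n = 3 each), and its values overlapped between the groups (exact permutation test, two-sided, p = 1).

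The peroxiredoxins, peroxidases that draw electrons from thioredoxin or, in the case of Prdx6, from glutathione, moved in opposite directions. Prdx1, the abundant cytosolic form, was at 241, 237 and 228 FPKM in SAHH-KO libraries and at 366, 516 and 461 FPKM in control libraries (log2 fold change -0.91, SE 0.121, limma adjusted p = 0.000374). Its control libraries spread widely, but the lowest of them lies well above all SAHH-KO libraries. Prdx5, which acts in mitochondria, peroxisomes and cytosol, was at 258, 244 and 247 FPKM in SAHH-KO libraries and at 112, 90.9 and 119 FPKM in control libraries (log2 fold change 1.22, SE 0.105, limma adjusted p = 3.59e-05). In FPKM the order of the pair is turned round between the groups. Prdx5 stood at 1.07, 1.03 and 1.08 times Prdx1 in SAHH-KO and at 0.307, 0.176 and 0.257 times in control (exact permutation test, two-sided, p = 0.1, the smallest possible here). Both genes already stand apart in opposite directions, so that p was fixed in advance and adds no support. The order in SAHH-KO depends on division by gene length. In reads Prdx1 stayed higher there, with 33844 over the SAHH-KO libraries, against 25243 for Prdx5. Of the FPKM summed over the 5 peroxiredoxin genes, Prdx1 held 37.2 ± 0.367% in SAHH-KO and 62.6 ± 4.20% in control, and Prdx5 held 39.4 ± 0.731% in SAHH-KO and 15.3 ± 3.16% in control (SD, n = 3 each). The sum itself was 633 ± 15.8 FPKM in SAHH-KO and 712 ± 76.6 FPKM in control, with overlapping values (exact permutation test, two-sided, p = 0.3). Prdx5 (ENSMUSG00000024953, chromosome 19, bases 6906697 to 6910106, minus strand) shares 19.1% of its exon bases with Trmt112 on the opposite strand, a gene at 40.6 ± 2.50 FPKM in SAHH-KO and 32.6 ± 4.24 FPKM in control.

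**Figure D3:**
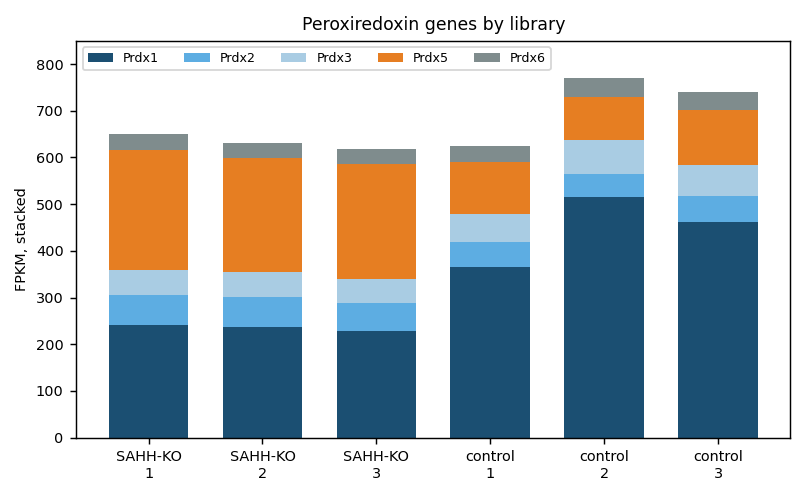
FPKM of the 5 peroxiredoxin genes stacked per library, SAHH-KO on the left and control on the right. Prdx1 makes up 37.2% of the stack in SAHH-KO and 62.6% in control on average, and Prdx5 39.4% in SAHH-KO and 15.3% in control.

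The remaining peroxiredoxins differed less. Prdx2, a cytosolic form, averaged 63.1 ± 2.11 FPKM in SAHH-KO and 53.05 ± 3.89 FPKM in control, a small rise (log2 fold change 0.25, limma adjusted p = 0.0311; 11.48% of its exon bases are shared with Rnaseh2a on the opposite strand) that missed the threshold with TPM (0.09, adjusted p = 0.392). It also missed it without SAHH-KO replicate 1, 2 or 3 (adjusted p = 0.0957, 0.0834 and 0.0740) and without control replicate 2 (adjusted p = 0.0569). Prdx3, the mitochondrial form, averaged 52.6 ± 2.02 FPKM in SAHH-KO and 66.1 ± 7.63 FPKM in control (log2 fold change -0.32, limma adjusted p = 0.0225). Its fall was not called without SAHH-KO replicate 1 or 3 or control replicate 3 (limma adjusted p = 0.0630, 0.0876 and 0.0649). Prdx6 averaged 32.7 ± 0.654 FPKM in SAHH-KO and 37.6 ± 3.49 FPKM in control and was not called (limma adjusted p = 0.0978), except without control replicate 1 (adjusted p = 0.0141) and under the scalings that move the median of all genes tested down, TPM (adjusted p = 0.00789), voom on recovered reads (adjusted p = 0.00526) and assigned reads (adjusted p = 0.00966).

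All 5 genes of NADPH supply fell, with a median log2 fold change of -0.49 (-0.67 with TPM). Pgd, the enzyme of the oxidative pentose phosphate branch that follows glucose-6-phosphate dehydrogenase, fell most. It was at 43.9, 54.0 and 51.6 FPKM in SAHH-KO libraries and at 97.3, 82.3 and 85.5 FPKM in control libraries (log2 fold change -0.81, SE 0.103, limma adjusted p = 0.000300). Taldo1, transaldolase of the non-oxidative branch, was at 105, 102 and 96.8 FPKM in SAHH-KO libraries and at 154, 155 and 169 FPKM in control libraries (log2 fold change -0.65, SE 0.0757, limma adjusted p = 0.000190). For both genes every SAHH-KO library lies below every control library. G6pdx, which opens the pathway, fell to 93.9 ± 2.09 FPKM in SAHH-KO, against 123 ± 1.86 FPKM in control (log2 fold change -0.38, limma adjusted p = 0.00173), with 13.6% of its exon bases shared with Ikbkg on the opposite strand, a gene at 5.52 ± 0.0936 FPKM in SAHH-KO and 5.53 ± 0.146 FPKM in control. Me1, malic enzyme of the cytosol, fell to 9.02 ± 0.611 FPKM in SAHH-KO, against 13.1 ± 1.52 FPKM in control (log2 fold change -0.49, limma adjusted p = 0.00419), and 28.3% of its 50-base words occur in other genes. Tkt, transketolase, fell least, to 65.8 ± 0.872 FPKM in SAHH-KO, against 76.95 ± 5.27 FPKM in control (log2 fold change -0.22, limma adjusted p = 0.0399). That call was lost without any of SAHH-KO replicates 1, 2 and 3 or control replicates 1 and 3 (limma adjusted p = 0.0977, 0.0861, 0.136, 0.0617 and 0.105).

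Among 6 detoxification genes, 3 fell, 1 rose and 2 were not called. Among the falls, those of Nqo1 and Osgin1 are not independent of the filter, which these genes passed only through their control values. Nqo1, a quinone reductase that uses NADPH and a standard marker of NRF2 activity, had almost no reads in SAHH-KO macrophages. Its levels were 0.0387, 0 and 0 FPKM in SAHH-KO libraries and 2.19, 2.32 and 3.28 FPKM in control libraries. That is 1 read over all SAHH-KO libraries and 207 reads over all control libraries, 57, 59 and 91 in the single ones. Scaled to library size the level was 192-fold lower in SAHH-KO, with a 95% exact interval of 34.03-fold to 7608-fold that covers counting error only. On the log2(FPKM + 1) scale the difference was -1.82 (SE 0.133, limma adjusted p = 1.51e-05), a size set by the pseudocount, since it becomes -4.57 with a pseudocount of 0.1. Nqo1 (ENSMUSG00000003849) lies on the minus strand of chromosome 8, bases 107388225 to 107403206, and shares none of its 50-base words with another gene.

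The other low gene of the group, Osgin1, an oxidative stress response gene linked to growth inhibition, behaved alike in direction. It read 1.08, 0.762 and 0.705 FPKM in SAHH-KO libraries and 3.04, 1.99 and 2.34 FPKM in control libraries, without overlap (log2 fold change -0.90, SE 0.139, limma adjusted p = 0.000895, and -1.43 with a pseudocount of 0.1). Blvrb, biliverdin reductase B, works in haem breakdown and as a flavin reductase. It was at 22.5, 19.3 and 21.1 FPKM in SAHH-KO libraries and at 46.3, 33.95 and 41.7 FPKM in control libraries (log2 fold change -0.92, SE 0.120, limma adjusted p = 0.000354). Abcc1, a transporter that exports glutathione conjugates and leukotriene C4, was the gene that rose. It was at 42.5, 35.8 and 39.1 FPKM in SAHH-KO libraries and at 27.8, 23.8 and 23.4 FPKM in control libraries (log2 fold change 0.63, SE 0.0990, limma adjusted p = 0.000961). Neither glutathione transferase was called: Gstm1 averaged 11.2 ± 1.43 FPKM in SAHH-KO and 10.4 ± 1.11 FPKM in control (adjusted p = 0.451), and Gsto1 averaged 23.8 ± 3.28 FPKM in SAHH-KO and 20.7 ± 0.828 FPKM in control (adjusted p = 0.164).

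The genes that remove superoxide and peroxide moved in both directions. Cat, peroxisomal catalase, fell to 28.1 ± 2.99 FPKM in SAHH-KO, against 49.3 ± 1.75 FPKM in control (log2 fold change -0.79, SE 0.0920, limma adjusted p = 0.000188). Sod2, the manganese superoxide dismutase of mitochondria and a known target of NF-κB, rose instead, with 93.3, 93.6 and 96.1 FPKM in SAHH-KO libraries and 66.9, 65.8 and 68.2 FPKM in control libraries (log2 fold change 0.49, SE 0.0672, limma adjusted p = 0.000463), and 21.04% of its 50-base words occur in other genes. Sod1, the cytosolic copper-zinc enzyme, averaged 40.9 ± 1.74 FPKM in SAHH-KO and 47.7 ± 2.14 FPKM in control (log2 fold change -0.22, limma adjusted p = 0.0409). Its fall was lost without any of SAHH-KO replicates 1, 2 and 3 or control replicates 1 and 3 (limma adjusted p = 0.129, 0.0838, 0.0996, 0.0567 and 0.138). The Sod2 level was 2.40, 2.24 and 2.28 times that of Sod1 in SAHH-KO libraries and 1.37, 1.46 and 1.39 times in control libraries (exact permutation test, two-sided, p = 0.1, the smallest possible here). Sod2 and Sod1 already stand apart in opposite directions, so that p was fixed in advance and adds no support.

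Set against the promoter windows read above, 8 of the 10 genes with TGACNNNGC fell and none rose, and 10 of the 20 genes without it fell and 5 rose. Among all genes tested 26.8% fell and 26.4% rose, and the share among those with these letters was not determined. The 8 falls include Sod1, whose call was lost when single libraries were left out. The 4 genes with TGANTCAGC, the form added after the windows had been read, all fell. Srxn1, Prdx1 and Me1 of them also hold TGACNNNGC, so their falls are already counted among the 8. Osgin1, whose fall is not independent of the filter, is among the 20 without TGACNNNGC. Mafg and Nfe2l2 are the genes with TGACNNNGC that were not called. These counts describe letters in 300-base windows and were not tested.

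A wider list of 91 genes of the same pathways was called about equally often in each direction as deposited. Of the 63 that were tested, 18 rose (28.6%) and 19 fell (30.2%), close to the 26.4% and 26.8% of all genes tested, and their median log2 fold change was -0.04. Under TPM scaling 9 of them rose and 28 fell. Calls across all genes tested also moved towards falls under that scaling, as given above. The move towards falls is therefore not a trait of this list alone. Of 8 other regulators tested 5 rose and none fell, although with TPM 3 rose and 3 fell. Among the rises as deposited, Btrc passed the filter only through its SAHH-KO values, so only a rise was open to it. It read 1.26, 1.10 and 1.39 FPKM in SAHH-KO libraries and 0.770, 0.816 and 0.744 FPKM in control libraries (limma adjusted p = 0.0216). The Btrc call was lost with TPM (adjusted p = 0.0601) and held in only 3 of the fits that left out 1 library. Nfe2l1, which encodes the NRF2 relative that controls proteasome genes, rose to 119.9 ± 9.53 FPKM in SAHH-KO, against 53.8 ± 5.37 FPKM in control (log2 fold change 1.14, limma adjusted p = 3.29e-05). The small MAF genes Maff and Mafk rose 1.76-fold and 1.42-fold (limma adjusted p = 0.00150 and 0.0155), and Gsk3b, a kinase that marks NRF2 for degradation, 1.41-fold (adjusted p = 0.00600). The Mafk call was lost with TPM (adjusted p = 0.0745) and without SAHH-KO replicate 3 (adjusted p = 0.0523).

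In the wider glutathione list 4 of 12 tested rose and 6 fell. Cth, which makes cysteine from cystathionine, was at 96.4, 85.3 and 87.1 FPKM in SAHH-KO libraries and at 15.5, 20.6 and 16.3 FPKM in control libraries (log2 fold change 2.301, limma adjusted p = 2.07e-06). Chac1, which degrades glutathione, was at 57.3, 59.1 and 58.0 FPKM in SAHH-KO libraries and at 16.5, 16.1 and 16.6 FPKM in control libraries (log2 fold change 1.76, limma adjusted p = 6.30e-07). For both genes every SAHH-KO library lies far above every control library, the opposite of Slc7a11, Gclm and Gclc. The glyoxalase genes went opposite ways, with Glo1 at 19.4 ± 0.827 FPKM in SAHH-KO and 30.5 ± 2.75 FPKM in control (limma adjusted p = 0.000546), and Hagh at 20.3 ± 2.39 FPKM in SAHH-KO and 11.6 ± 0.647 FPKM in control (limma adjusted p = 0.000407).

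Of 14 further thioredoxin-related genes tested 3 rose (21.4%) and 5 fell (35.7%), against 26.4% and 26.8% of all genes tested. Sesn2, a stress-induced sestrin that binds KEAP1 and p62, rose 3.65-fold (log2 fold change 1.79, limma adjusted p = 1.81e-06), and Selenow, a selenoprotein, rose 1.55-fold (limma adjusted p = 0.00426). The methionine sulfoxide reductase genes Msrb1 and Msra fell to 27.1 ± 5.32 and 1.93 ± 0.205 FPKM in SAHH-KO, against 40.7 ± 3.65 and 2.9002 ± 0.232 FPKM in control (limma adjusted p = 0.00691 and 0.00773). In NADPH supply beyond the 5 genes above, 1 of 9 rose (11.1%) and 2 fell (22.2%). Pgls, the lactonase between glucose-6-phosphate dehydrogenase and Pgd, rose to 24.9 ± 1.80 FPKM in SAHH-KO, against 19.5 ± 1.43 FPKM in control (limma adjusted p = 0.0121). That call was lost with TPM (adjusted p = 0.112), and 20.6% of the exon bases of Pgls are shared with Fam129c. Me2, the mitochondrial malic enzyme, fell to 24.7 ± 3.37 FPKM in SAHH-KO, against 43.3 ± 5.15 FPKM in control (limma adjusted p = 0.000955), and Nadk, which makes NADP from NAD, to 128 ± 9.89 FPKM in SAHH-KO, against 159 ± 7.57 FPKM in control (limma adjusted p = 0.0135).

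Of 20 other detoxification genes tested 5 rose and 6 fell. With TPM 1 rose and 9 fell, under a scaling that moved the calls of all genes tested towards falls too. Akr1b8, an aldo-keto reductase, was at 41.0, 38.0 and 41.8 FPKM in SAHH-KO libraries and at 78.9, 90.0 and 90.1 FPKM in control libraries (log2 fold change -1.08, limma adjusted p = 2.16e-05). Hmox1, haem oxygenase 1, which BACH1 represses and NRF2 induces, was at 70.4, 75.8 and 76.7 FPKM in SAHH-KO libraries and at 116, 108.5 and 115 FPKM in control libraries (log2 fold change -0.60, limma adjusted p = 0.000248). Neither gene has overlapping groups. Abcc4, an exporter, and Akr1b3, aldose reductase, fell to 65.9% and 73.0% of their control means (limma adjusted p = 0.00104 and 0.00151).

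**Figure D4:**
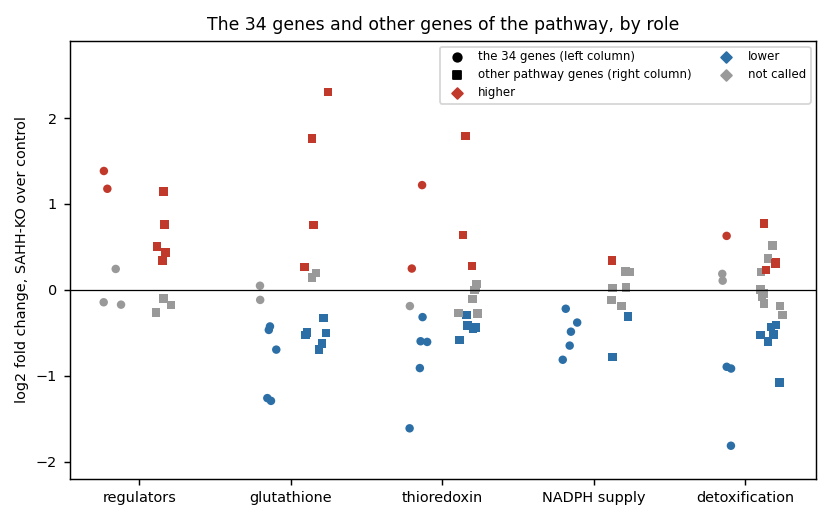
Log2 fold change, SAHH-KO over control on log2(FPKM + 1), of tested genes by role, coloured by call. Circles (left in each pair) are genes of the 34, of which Cat, Sod1 and Sod2 are not drawn. Squares (right) are other genes of the pathway. NADPH supply and glutathione among the 34 genes hold no called rise, while the other genes of the pathway lie on both sides of 0, with Cth (2.301) highest.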

How the data were processed

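The authors deposited 1 table of FPKM values per gene and library, with gene length in bases, coordinates and Ensembl identifiers. The submitters' processing notes name FastQC and Trim Galore, STAR and also featureCounts, with GRCm38 and mm10 as builds. Tool versions, the strand setting and the step to FPKM are not given there. FPKM times gene length gave whole reads for 100% of values above 0 (within 0.01 of a read), and the library sizes implied by the values of 1 read were proportional to median-of-ratios size factors in all 6 libraries. Their mean ratio to reads on genes was 0.950 in SAHH-KO and 1.06 in control. For a gene of 1 kb, 3 reads are worth 0.168 to 0.197 FPKM, for counting error only.

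Genes with at least 1 FPKM in at least 3 libraries were tested with limma 3.58.1 in R 4.3.3 (eBayes with trend, group as the only term, two-sided) on log2(FPKM + 1). The procedure was tested on simulated data, where it recovered 71.6% of genes changed 1.5-fold and 94.0% of genes changed 2-fold among 10131 genes. Of its calls there 7.49% were false, above the 0.05 aimed at. Only 67 genes were changed at each of these folds, and all genes had a common spread taken from genes with many reads. In the real data 53.3% of genes were called, so these rates need not hold here, least of all for low genes. Named are all 34 genes, Ahcy and, per role of the wider list, up to 4 called genes with the smallest adjusted p. Any other gene was chosen after its values were seen. The genes and lists were chosen with earlier results of these data known. All 34 genes are in GENCODE M21 at the same position. Of them, 6 share at least 10% of exon bases with another gene, and 2 share at least 25% of their 50-base words. Replicates differed beyond sampling noise (chi-square per degree of freedom 4.19 to 31.5).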

Additional observations from a re-analysis of the deposited data

How the results depend on the processing

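Of the 26 calls among the 34 genes, 22 (17 falls and 5 rises) were kept under all 16 alternatives: pseudocounts of 0.1 and 0.5, no filter, a filter at 0.1 FPKM, TPM, no trend, the replicate block, voom on recovered reads, each library left out, and, added after seeing the data, scaling by assigned reads and voom with the authors' library sizes. The others, Prdx2, Prdx3, Tkt and Sod1, had the smallest differences, and Prdx3 also missed the threshold without a filter (limma adjusted p = 0.0544). No direction of a called gene reversed. Without 1 replicate, 5 to 7 of the 34 genes were higher and 17 to 20 lower, in the wider list 12 to 20 and 16 to 25, and over all genes 2236 to 2934 and 2199 to 2969. In the wider list 18 genes were called higher, against 9 with TPM, 11 with voom on recovered reads and 9 with assigned-read scaling, all of which move the median of all genes tested down (-0.16, -0.17 and -0.14).

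Equally numbered replicates deviated from their group means with correlations of 0.0955, 0.101 and -0.00556, so the numbers were not taken to pair the samples. With the replicate block, 6 of the 34 genes were higher and 18 lower, and Tkt and Sod1 lost their calls (limma adjusted p = 0.0599 and 0.0640), as they did without the trend (0.0548 and 0.0546). Depth limits Nqo1 and Osgin1, whose lowest libraries held 0 and 29 reads, and every other gene of the 34 had at least 234 reads in each library.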

Other observations

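Iron and haem genes that NRF2 is known to control were looked at after the values above were seen. Ftl1, the ferritin light chain gene, was at 1024, 900.5 and 868 FPKM in SAHH-KO libraries and at 1806, 1764 and 2001 FPKM in control libraries (log2 fold change -0.997, limma adjusted p = 4.80e-05). Its partner Fth1, the ferritin heavy chain gene, averaged 11434 ± 744 FPKM in SAHH-KO and 10922 ± 460.5 FPKM in control, with overlapping libraries (limma adjusted p = 0.515). Ftl1 shares 58.4% of its 50-base words with other genes, mostly pseudogenes such as Ftl1-ps1, which was counted at 29.2 FPKM in SAHH-KO and 58.9 FPKM in control on average, so its level is uncertain. Slc48a1, a haem transporter of the phagolysosome, averaged 20.9 ± 3.57 FPKM in SAHH-KO and 32.7 ± 2.63 FPKM in control (limma adjusted p = 0.00294). Slc40a1, the iron exporter ferroportin, stayed below 1 FPKM in all libraries, with 0.174 ± 0.0343 FPKM in SAHH-KO and 0.390 ± 0.0641 FPKM in control, and was not tested.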
